A study of Ovis aries with 9 samples.

Results

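Genes of white blood cells, of the interferon response and of antigen presentation were followed in the developing longissimus dorsi, the long muscle of the back, of Chinese merino sheep fetuses. A set of 37 gene symbols was used, and each was looked up among the gene names of the 22605 loci of the deposited expression table. Of these, 33 are described here, each at the locus of highest mean level where a name had several loci. CD163, CD14 and BST2 were not found under those symbols. Whole muscle was sampled on day 85 (D85), day 105 (D105) and day 135 (D135) of pregnancy. Each day has 3 libraries, and the labels name no treatment or genotype. Whether these are 3 fetuses is not stated, so p-values reflect only the variation among libraries, part of which may be technical. Levels are in FPKM, that is, read fragments relative to transcript length and library size. The read depth is unknown, since no counts are used here.

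Interferons are signalling proteins released when cells sense viral nucleic acid or inflammation. Through STAT and IRF transcription factors they switch on antiviral genes such as MX1 and ISG15 and the genes that load peptides onto MHC molecules for display to T cells. Resident macrophages are the main white blood cells of healthy skeletal muscle, where they clear debris and are known to take part in growth and repair of the fibres.

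Libraries carried muscle genes at high levels, with 8 skeletal muscle markers summing to between 6359 and 18620 FPKM per library. Within each day that sum was lowest in D85 replicate 1, D105 replicate 2 and D135 replicate 1, at 6359, 7830 and 15179 FPKM. D105 replicate 2 stood apart from the other D105 libraries in connective tissue genes. Its 9 fibroblast markers summed to 6758.5 FPKM, and its 8 tendon and cartilage markers to 431 FPKM. In D105 replicates 1 and 3 those sums were 2528.2 and 2566.1 FPKM for fibroblasts, and 25.0 and 31.9 FPKM for tendon and cartilage. Over the 13086 loci tested, the median log2 change was -0.02 (D105 against D85), -0.33 (D135 against D105) and -0.35 (D135 against D85). A change is therefore also given relative to that median, or after median-of-ratios scaling, which gives the libraries a common scale. Changes are on the scale of log2(FPKM + 1), which understates those of low genes.

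B2M, the light chain shared by MHC class I molecules, was higher at D135 than at D85, both in the deposited values and after median-of-ratios scaling. STAT2, a transcription factor of the interferon response, was lower at D135 than at either earlier day in the deposited values. CD68, a macrophage protein, was lower at D135 than at D85, and LAPTM5, a lysosomal protein of blood cells, was lower at D135 than at D105. The last 3 did not pass the test after median-of-ratios scaling, and each of the 4 lost its calls when single libraries were left out. The other interferon response genes passed in no comparison of the deposited values, and their highest values were mostly in 1 library at D105 and 1 library at D135. Macrophage genes were measured at every day, while CD4 and CD3E, the T cell genes of the set, were below 1 FPKM in every library. PTPRC, AIF1 and ITGAM, of white blood cells, were also too low to be tested.

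Of the 33 genes, 25 reached at least 1 FPKM in at least 3 libraries and were tested with limma, with p-values adjusted over all tested loci. The other 8, PTPRC, AIF1, ITGAM, CD4, CD3E, NLRC5, CIITA and IRF7, were too low. For D105 against D85 none of the 25 passed an adjusted p of 0.05, where 0.199% of all tested loci did. An unadjusted p under 0.05 was found for 4 of the 25, and for 1611 of all 13086 tested loci. For D135 against D105, 2 of the 25 passed, where 39.5% of all loci did: 0 rose and 2 fell, against 4.47% and 35.0% of all loci. For D135 against D85, 3 passed, where 46.6% of all loci did: 1 rose and 2 fell, against 6.90% and 39.7% of all loci. Without D105 replicate 2 the counts for these comparisons were 0 higher and 1 lower, and 3 higher and 2 lower. Of all 13086 tested loci, 554 were then higher and 3763 lower for D135 against D105, and 933 higher and 5219 lower for D135 against D85. After median-of-ratios scaling 6 rose and 0 fell for D135 against D85, where 27.6% of all loci passed, 14.8% higher and 12.8% lower. For D135 against D105, 1 rose, TAP2, and 0 fell after that scaling, where 17.6% of all loci passed, 10.3% higher and 7.31% lower. The median change of the 25 genes, relative to that of all loci, was 0.41 at D105 and 0.62 at D135, each against D85, and 0.20 at D135 against D105. Without D105 replicate 2 these medians were 0.17, 0.62 and 0.42. The second was bound to stay the same, since no D105 library enters the change for D135 against D85.

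**Figure D1:**
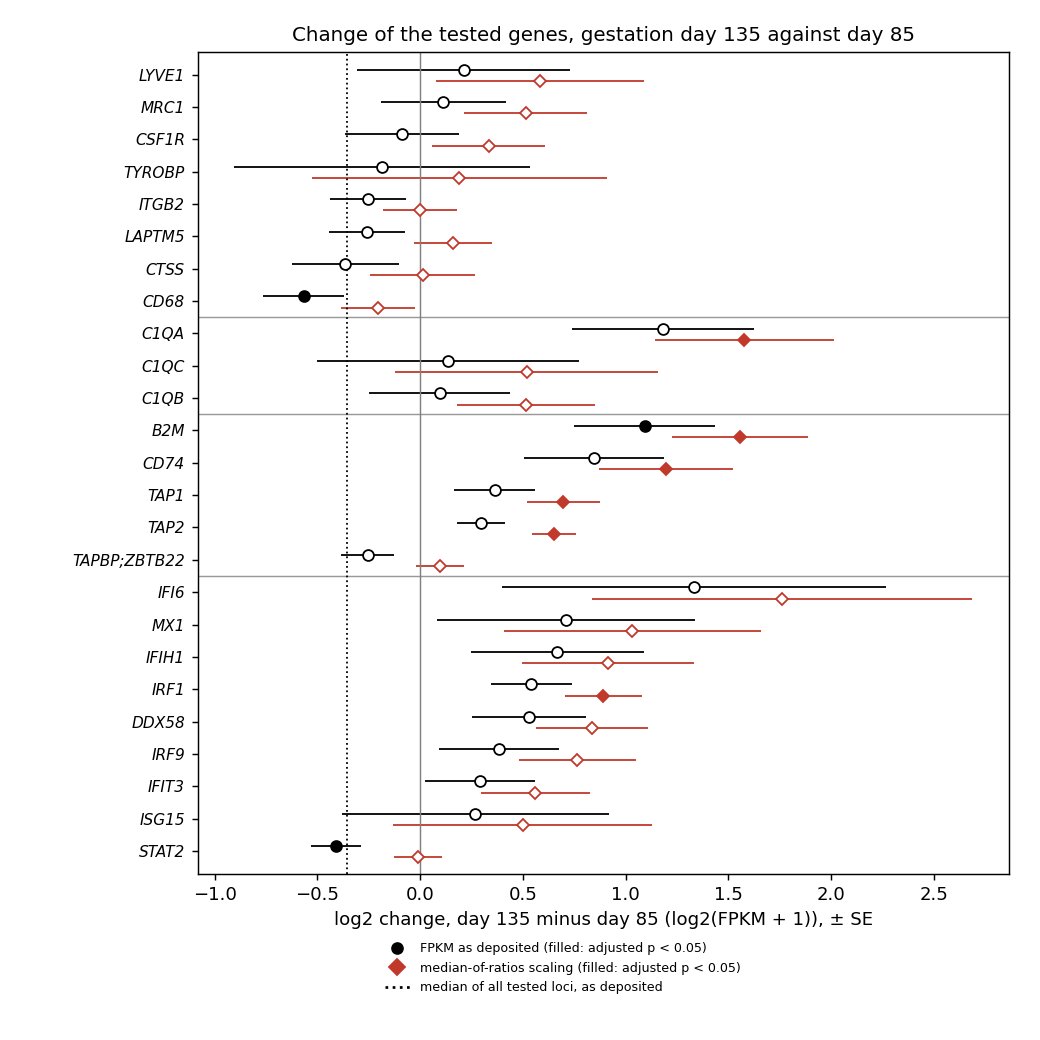
Change of each of the 25 tested genes for D135 against D85, as log2(FPKM + 1) ± SE, in FPKM as deposited (black circles) and after median-of-ratios scaling (red diamonds), with filled symbols for an adjusted p under 0.05 and a dotted line at the median of all loci. B2M is filled above 0 on both scales, and CD68 and STAT2 are filled below 0 in the deposited values alone.

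The interferon response genes were led by IFI6, a small interferon-induced protein. Its level in FPKM was 9.50, 6.997 and 8.04 at D85, 9.96, 51.0 and 16.3 at D105, and 108, 11.1 and 8.16 at D135 (replicates 1, 2 and 3). D135 replicate 1 and D105 replicate 2 were far above every other library, all D105 values were above all D85 values, and the other D135 libraries overlapped both earlier days. The log2 change was 1.23 ± 0.93 (SE) for D105 against D85 (limma adjusted p = 0.636) and 1.33 ± 0.93 for D135 against D85 (limma adjusted p = 0.274). Without D105 replicate 2 and D135 replicate 1 the changes were 0.59 and 0.21.

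MX1, a GTPase that blocks viruses, had 1.49, 1.16 and 3.26 FPKM at D85, 2.35, 12.1 and 4.58 FPKM at D105, and 9.67, 2.13 and 1.99 FPKM at D135. ISG15, a ubiquitin-like protein joined to other proteins after interferon, had 0.435, 0.318 and 2.45 FPKM at D85, 0.517, 8.80 and 2.17 FPKM at D105, and 1.58, 1.38 and 0.866 FPKM at D135. Both genes were highest in D105 replicate 2, and both had D85 replicate 3 well above the other D85 libraries. MX1 was also high in D135 replicate 1, whereas ISG15 was low in all 3 D135 libraries. For D105 against D85 the log2 change of MX1 was 1.14 ± 0.63 (limma adjusted p = 0.513) and that of ISG15 was 0.95 ± 0.65 (limma adjusted p = 0.599), so neither passed. Without D105 replicate 2 they were 0.61 for MX1 and 0.23 for ISG15, and without D105 replicate 1 ISG15 was 1.58.

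The cytoplasmic sensors of viral RNA had the same leading libraries. IFIH1 had 0.642, 0.648 and 0.890 FPKM at D85, 0.934, 3.80 and 1.90 FPKM at D105, and 3.82, 0.723 and 1.47 FPKM at D135. DDX58 had 1.01, 1.20 and 2.13 FPKM at D85, 1.48, 3.26 and 1.98 FPKM at D105, and 3.73, 2.02 and 1.92 FPKM at D135. Each was highest within its day in D105 replicate 2 and in D135 replicate 1. IFIT3, which binds partner IFIT proteins on viral RNA, lay between 0.960 and 2.91 FPKM, with the same 2 libraries on top. None of these 3 genes passed in any comparison.

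The transcription factors of the pathway divided. IRF9, which joins STAT2 in the complex that interferon activates, had 3.63, 3.44 and 3.91 FPKM at D85, 4.20, 8.66 and 5.47 FPKM at D105, and 8.20, 4.06 and 3.82 FPKM at D135. Its pattern followed IFI6, with D105 replicate 2 and D135 replicate 1 highest. STAT2, its partner, had 7.33, 6.55 and 6.87 FPKM at D85, 6.76, 6.20 and 7.50 FPKM at D105, and 5.9998, 4.58 and 4.41 FPKM at D135. All D135 libraries were below every earlier library, and D105 replicate 2 was the lowest of its day. STAT2 fell by 0.39 ± 0.12 on the log2 scale for D135 against D105 (limma adjusted p = 0.037) and by 0.41 ± 0.12 for D135 against D85 (limma adjusted p = 0.0264). The median of all loci fell by 0.33 and 0.35 in those comparisons, and after median-of-ratios scaling the changes of STAT2 were -0.01 and -0.01 (limma adjusted p = 0.956 in both). Leaving out D85 replicate 1 or 3 or D135 replicate 2 or 3 ended both calls, with limma adjusted p from 0.0503 to 0.112, and leaving out D105 replicate 1 or 3 ended that for D135 against D105 (limma adjusted p = 0.0815 and 0.107).

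IRF1, a transcription factor that interferon gamma induces, was 2.08, 2.19 and 2.45 FPKM at D85, 3.19, 5.04 and 2.80 FPKM at D105, and 4.74, 3.04 and 3.50 FPKM at D135. All D85 libraries were below all libraries of the later days, which overlapped each other. The change was 0.54 ± 0.20 for D135 against D85 and missed the threshold (limma adjusted p = 0.0534), and it was 0.89 after median-of-ratios scaling (limma adjusted p = 0.00959). Without D105 replicate 2, which does not enter this change, it stayed at 0.54 (limma adjusted p = 0.0212). Without D135 replicate 1 as well it was 0.40 (limma adjusted p = 0.0386). Without D85 replicate 1 in addition it was 0.36 and did not pass (limma adjusted p = 0.0938). IRF7, the factor that amplifies type I interferon, was below 1 FPKM in every library, between 0.0506 and 0.749 FPKM.

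**Figure D2:**
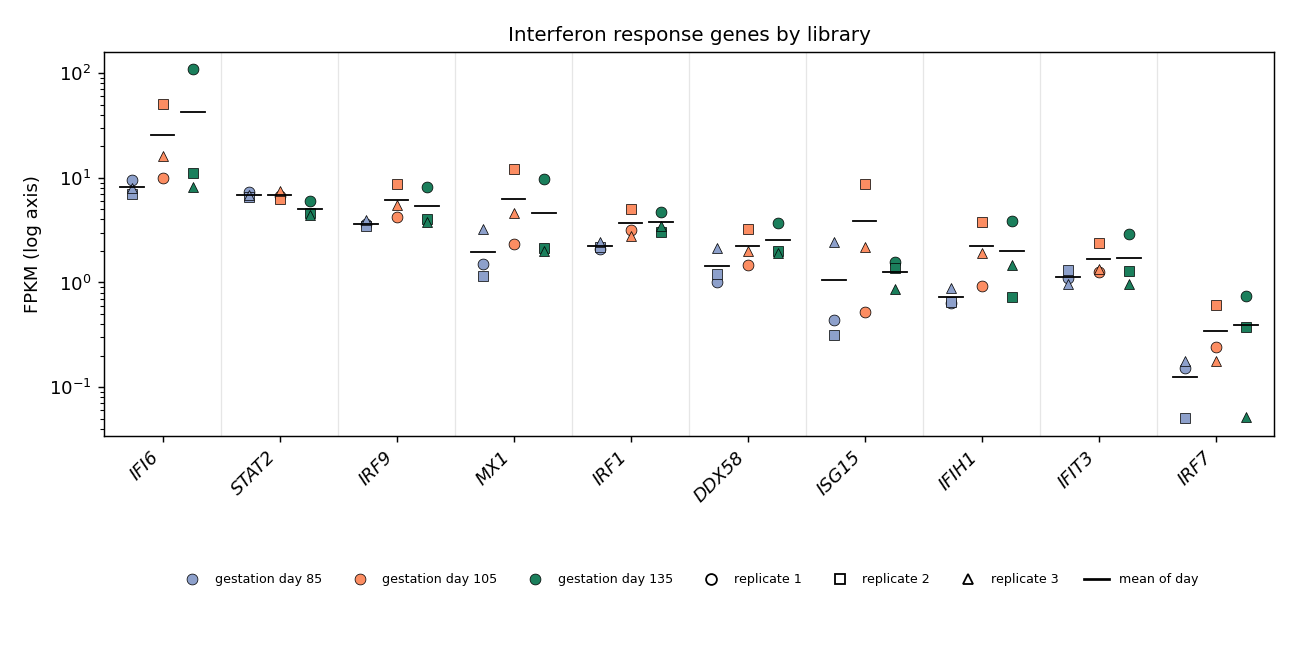
FPKM (log axis) of the 10 interferon response genes in each library, with days in colour, replicates by symbol and a bar at the mean of each day. D105 replicate 2 (orange square) and D135 replicate 1 (green circle) are the highest of their day for IFI6, IRF9, MX1, IRF1, DDX58, ISG15, IFIH1, IFIT3 and IRF7, while STAT2 varies little.

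Counted over the 9 tested interferon response genes, D105 replicate 2 was the highest library of its day for 8, and D135 replicate 1 for 9. Over all tested loci, replicates 1, 2 and 3 were highest for 32.0%, 38.5% and 29.2% at D105, and for 42.4%, 23.3% and 33.9% at D135. At D85 the highest library was replicate 3 for 6 genes, replicate 1 for 2 and replicate 2 for 1, against 22.7%, 34.1% and 42.9% of all loci. The genes of the same response that were not in the set of 37 were counted in the same way. Of 21 further tested effectors, 21 were highest in D105 replicate 2 and 19 in D135 replicate 1, and of 24 further receptors and signalling genes 12 and 14 were. OAS1, which makes the second messenger that activates RNase L and was picked after its values were seen, had 6.68 FPKM in D105 replicate 2 and 7.47 FPKM in D135 replicate 1, and between 0.677 and 2.46 FPKM elsewhere. RSAD2, an antiviral enzyme picked in the same way, had 4.28 and 3.62 FPKM in those libraries and between 0.349 and 2.07 FPKM in the others. Summed over the 10 interferon response genes found, the level was 102 FPKM in D105 replicate 2 and 150 FPKM in D135 replicate 1, and between 23.9 and 44.2 FPKM in the other libraries. IFI6 alone made up 51.0 and 108 FPKM of the first pair of sums.

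Markers of fibroblasts, adipocytes and skeletal muscle were set beside these counts. The 9 fibroblast markers were highest at D105 replicate 2 in 7 cases and at D135 replicate 1 in 0, and their sum in D135 replicate 1, 1417.5 FPKM, was the lowest of all libraries. The 6 tested adipocyte markers were highest in D105 replicate 2 in 6 cases and in D135 replicate 1 in 1 case. Of the 8 skeletal muscle markers, 1 was highest in D105 replicate 2 and 1 in D135 replicate 1, and their sum was the lowest of the day in both libraries. The part of these cell types in the level of interferon response genes was not tested. Within-day spread was large for the group, with a median SD of 0.40 on the log2 scale over the 9 tested genes, against 0.20 over all tested loci. A large spread was not particular to this group. The median SD was 0.62 for the 3 C1q genes, 0.37 for the 8 leukocyte and macrophage genes and 0.26 for the 5 antigen presentation genes. IFI6, at 1.32, had a larger within-day SD than 97.1% of tested loci, and STAT2, at 0.14, a larger one than 26.7%.

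**Figure D3:**
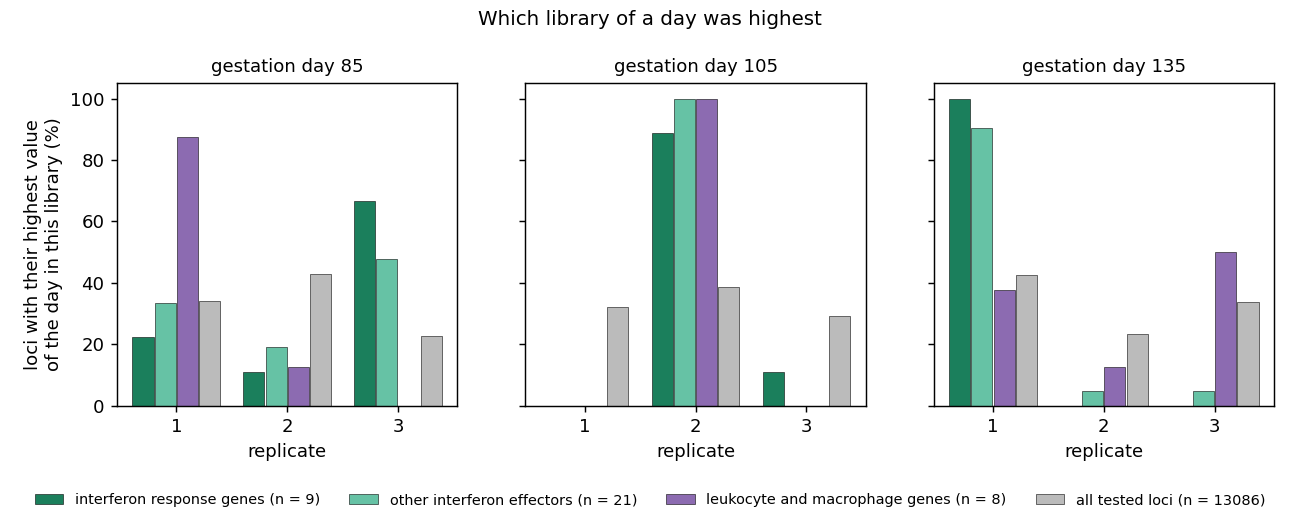
Share of loci (%) whose highest value of the day was in each replicate, for the 9 tested interferon response genes, 21 further interferon effectors, the 8 tested leukocyte and macrophage genes and all 13086 tested loci, by day. Interferon genes peak in D105 replicate 2 and D135 replicate 1, and leukocyte genes in D85 replicate 1 and D105 replicate 2.

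Antigen presentation genes were dominated by B2M. It had 143, 81.1 and 86.1 FPKM at D85, 108, 209 and 114 FPKM at D105, and 306, 170 and 188 FPKM at D135. All D135 libraries were above all D85 libraries, and D105 overlapped both. The mean was 222 ± 74.0 FPKM at D135 and 103 ± 34.3 FPKM at D85 (SD, n = 3 each), and the log2 change was 1.09 ± 0.34 (limma adjusted p = 0.0318). Relative to the median of all loci it was 1.45, and after median-of-ratios scaling 1.56 (limma adjusted p = 0.0103). The call was lost without D85 replicate 2 (0.94, limma adjusted p = 0.0981), D85 replicate 3 (0.99, limma adjusted p = 0.0873), D135 replicate 1 (0.83, limma adjusted p = 0.0951) or D135 replicate 3 (1.18, limma adjusted p = 0.054). It passed without both D105 replicate 2 and D135 replicate 1, the libraries with high interferon response genes (0.83, limma adjusted p = 0.0424). No D105 library enters this change, so it is the same as without D135 replicate 1 alone, and only the p-value moved. B2M was highest of its day in D105 replicate 2 and D135 replicate 1, and the part of the interferon response in its level was not tested.

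TAP1 and TAP2 form the pump that carries peptides to class I molecules. TAP2 had 2.70, 2.75 and 2.43 FPKM at D85, 2.70, 3.41 and 3.06 FPKM at D105, and 4.02, 3.35 and 3.02 FPKM at D135. TAP1 had 2.10, 2.32 and 1.54 FPKM at D85, 2.35, 2.73 and 1.55 FPKM at D105, and 3.64, 2.17 and 2.78 FPKM at D135. The D135 and D85 libraries did not overlap for TAP2, whereas they overlapped for TAP1. In the deposited values neither passed for D135 against D85, with a change of 0.29 ± 0.12 for TAP2 (limma adjusted p = 0.0708) and 0.36 ± 0.20 for TAP1 (limma adjusted p = 0.165). Without D135 replicate 1, its highest library, TAP1 was at 0.22. After median-of-ratios scaling both rose, by 0.65 for TAP2 (limma adjusted p = 0.00331) and by 0.70 for TAP1 (limma adjusted p = 0.0225). The locus of TAPBP, the tapasin that bridges this pump to class I molecules, is joined in the table with ZBTB22, a zinc finger gene, so its reads cannot be divided. It had 2.31 to 2.91 FPKM at D135 and 3.49 to 3.95 FPKM at D105, without overlap, and missed the threshold (-0.38 ± 0.13, limma adjusted p = 0.0501). The median of all loci fell by 0.33 in that comparison, and after median-of-ratios scaling the joined locus did not pass either.

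Of the class II genes of the set, CD74 was tested and CIITA was too low. CD74, the invariant chain that guides class II molecules, had 3.29, 1.51 and 1.36 FPKM at D85, 4.73, 4.50 and 3.83 FPKM at D105, and 7.83, 3.32 and 2.87 FPKM at D135. The D105 libraries lay above all D85 libraries, and D135 overlapped both other days. Its change was 0.86 ± 0.34 for D105 against D85 (limma adjusted p = 0.36) and 0.85 ± 0.34 for D135 against D85 (limma adjusted p = 0.073), and after median-of-ratios scaling the second was 1.20 (limma adjusted p = 0.0288). D135 replicate 1 was far above the other D135 libraries, and without it the second change was 0.48 in the deposited values (limma adjusted p = 0.18). CIITA, the activator of class II genes, lay between 0.0231 and 0.141 FPKM, and NLRC5, its counterpart for class I genes, between 0.168 and 0.330 FPKM, both below 1 FPKM in every library.

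**Figure D4:**
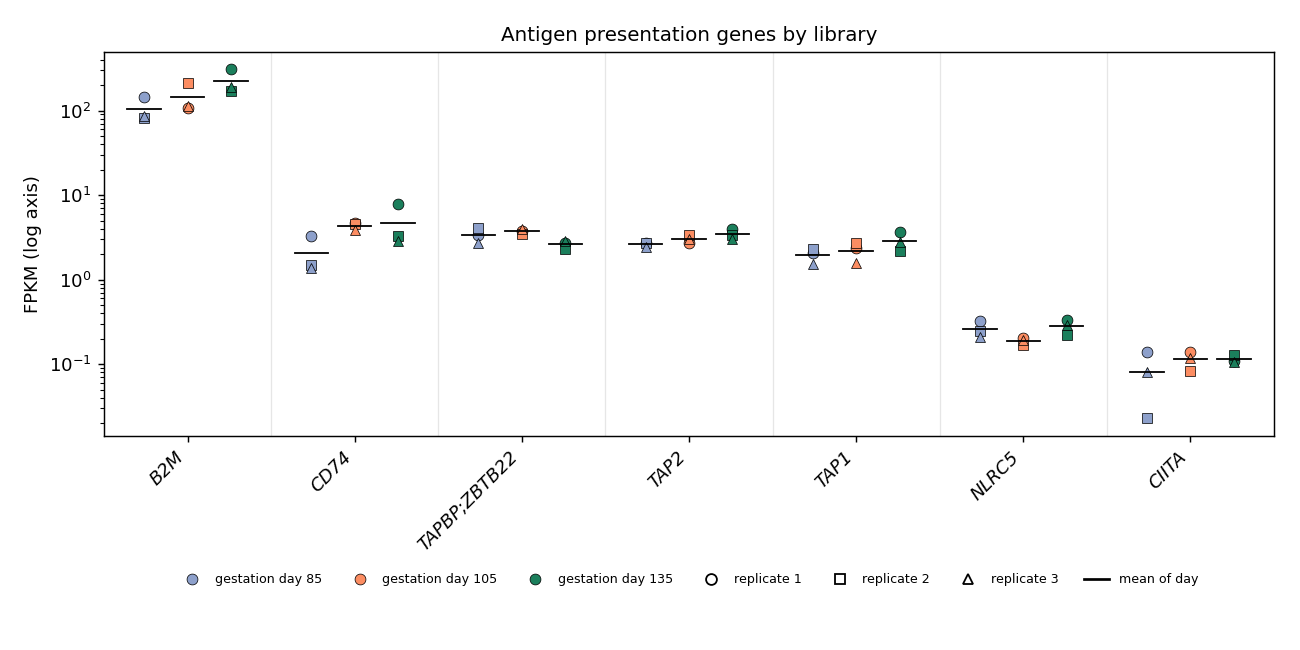
FPKM (log axis) of the 7 antigen presentation genes in each library, with days in colour, replicates by symbol and a bar at the mean of each day. B2M is above 81 FPKM in every library and highest at D135, while NLRC5 and CIITA stay below 1 FPKM.

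The MHC genes themselves were counted at loci picked by their description in the table. Each class has several such loci, and reads of closely similar copies within a class can be split between loci. How reads were assigned among them was not examined. Of 10 class I loci, 4 were tested, and their sum over the 10 loci was 10.6, 19.5 and 11.2 FPKM at D85, 16.3, 34.1 and 10.8 FPKM at D105, and 31.2, 13.5 and 62.9 FPKM at D135. The days overlapped, and the highest libraries were D135 replicates 3 and 1 and D105 replicate 2. OLA-I alone ranged from 0.177 to 50.2 FPKM, with no order by day. A class I locus without a gene name, LOC101110710, had 0.133, 0.496 and 0.333 FPKM at D85, 0, 2.12 and 0.416 FPKM at D105, and 10.3, 3.07 and 1.82 FPKM at D135. Its D135 and D85 libraries did not overlap, and D135 replicate 1 was far above the rest. The locus rose by 1.95 for D135 against D85 (limma adjusted p = 0.0223) and by 1.63 for D135 against D105 (limma adjusted p = 0.0497). All D85 libraries and D105 replicates 1 and 3 were under 1 FPKM. The locus thus passed the filter on low values only through the D135 libraries, where it was then called higher. Its calls are therefore no independent support for a rise. The call for D135 against D85 was lost without D85 replicate 1 (1.84, limma adjusted p = 0.0638) or D85 replicate 3 (1.96, limma adjusted p = 0.052), and that for D135 against D105 without any library other than D105 replicate 2 and D135 replicate 3 (limma adjusted p from 0.0671 to 0.144, with a change of 1.05 without D135 replicate 1). The other 3 tested class I loci did not pass. Of 16 class II loci 2 were tested, neither passed, and the sum over the 16 loci was between 2.47 and 9.32 FPKM per library. Since read assignment was not examined, values of single MHC loci remain uncertain.

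Leukocyte and macrophage genes were present at each day. CSF1R, the receptor that keeps macrophages alive, had 14.9, 6.83 and 8.09 FPKM at D85, 11.9, 15.9 and 9.16 FPKM at D105, and 8.48, 8.32 and 9.66 FPKM at D135. The days overlapped, and D85 replicate 1 and D105 replicate 2 were the highest libraries. TYROBP, the signalling adaptor of myeloid receptors, was at 14.3 FPKM in D85 replicate 1 and 15.3 FPKM in D105 replicate 2, and between 2.06 and 5.69 FPKM in the others. LYVE1, a hyaluronan receptor of lymphatic vessels and some tissue macrophages, had its highest values in the same libraries, 5.60 and 10.8 FPKM, and between 1.79 and 4.80 FPKM elsewhere. MRC1, the mannose receptor of tissue macrophages, had 8.45 and 8.71 FPKM there and between 3.45 and 6.64 FPKM elsewhere. None of these 4 genes passed in any comparison. In whole muscle, fewer macrophages and less RNA per macrophage cannot be told apart.

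Of the 8 tested genes of this group, 0 rose and 1 fell for D135 against D105, and 0 rose and 1 fell for D135 against D85, where 35.0% and 39.7% of all loci fell. LAPTM5, a lysosomal membrane protein of blood cells, had 7.48, 6.86 and 7.97 FPKM at D135 and 10.5, 15.4 and 13.2 FPKM at D105. The libraries of those days did not overlap, and the D85 values of 11.1, 6.89 and 9.69 FPKM lay across both. LAPTM5 fell by 0.72 ± 0.18 on the log2 scale for D135 against D105 (limma adjusted p = 0.0177). The fall was 0.39 beyond that of the median locus, and after median-of-ratios scaling it did not pass (-0.32, limma adjusted p = 0.293). The call was also lost without D105 replicate 2 (-0.60, limma adjusted p = 0.0528) or D135 replicate 2 (-0.67, limma adjusted p = 0.0594).

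CD68, a lysosomal glycoprotein of macrophages, had 2.72, 2.14 and 3.25 FPKM at D135 and 4.94, 5.22 and 3.36 FPKM at D85. Every D135 library was below every D85 library, while the D105 values of 4.29, 5.01 and 3.15 FPKM overlapped both. CD68 fell by 0.57 ± 0.20 on the log2 scale for D135 against D85 (limma adjusted p = 0.0453). After median-of-ratios scaling the change was -0.21 (limma adjusted p = 0.443). The call was lost when D85 replicate 1 (-0.50, limma adjusted p = 0.122), D85 replicate 2 (-0.47, limma adjusted p = 0.131), D105 replicate 1 (-0.57, limma adjusted p = 0.063), D135 replicate 1 (-0.58, limma adjusted p = 0.0882) or D135 replicate 2 (-0.45, limma adjusted p = 0.138) was left out.

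The remaining genes of the group passed in no comparison or were not tested. CTSS, a protease that trims the invariant chain, had between 2.83 and 7.48 FPKM, and ITGB2, the beta subunit of leukocyte integrins, between 0.733 and 1.90 FPKM. ITGAM, the alpha subunit that pairs with it on myeloid cells, had between 0.615 and 1.52 FPKM. PTPRC, the CD45 phosphatase of all white blood cells, was below 1 FPKM in every library, at 0.752, 0.344 and 0.374 FPKM at D85, 0.595, 0.955 and 0.820 FPKM at D105, and 0.735, 0.742 and 0.713 FPKM at D135. The joined locus of AIF1, an actin-binding protein of macrophages, and LST1 had between 0.437 and 1.17 FPKM.

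C1QA, C1QB and C1QC encode the subunits of complement C1q, which tissue macrophages secrete. C1QB had 12.1, 5.83 and 7.65 FPKM at D85, 7.96, 18.6 and 8.94 FPKM at D105, and 9.52, 6.95 and 10.3 FPKM at D135. C1QA had 1.37, 4.68 and 6.83 FPKM at D85, 7.13, 16.6 and 9.30 FPKM at D105, and 10.7, 8.61 and 9.86 FPKM at D135. The days overlapped for C1QB, while all D85 values of C1QA were below those of the later days. The change of C1QA for D135 against D85 was 1.18 ± 0.44 and missed the threshold (limma adjusted p = 0.0583). It was 1.58 after median-of-ratios scaling (limma adjusted p = 0.0298). Without D105 replicate 2, which does not enter this change, it stayed at 1.18 (limma adjusted p = 0.0499). Without D85 replicate 1, D105 replicate 2 and D135 replicate 1 it was 0.62 (limma adjusted p = 0.0839), and without D85 replicate 1 alone 0.68 (limma adjusted p = 0.131).

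The 3 subunits did not follow each other within a library. In D85 replicate 1 C1QA was at 1.37 FPKM beside 12.1 FPKM for C1QB and 9.004 FPKM for C1QC. C1QC was instead low in D85 replicate 3, D105 replicate 2 and D135 replicate 1, at 1.41, 3.17 and 1.82 FPKM, and between 5.21 and 9.02 FPKM in the other libraries. In those 3 libraries C1QB was at 7.65, 18.6 and 9.52 FPKM. The 3 genes are near neighbours in the genome, with C1QC between C1QB and C1QA in the RefSeq gene table of another assembly. Whether reads were assigned unevenly among them was not tested. Summed, they gave 15.7 to 22.5 FPKM at D85, 23.1 to 38.4 FPKM at D105, and 22.1 to 28.2 FPKM at D135, so the D85 sums lay below the D105 sums and overlapped the D135 sums.

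**Figure D5:**
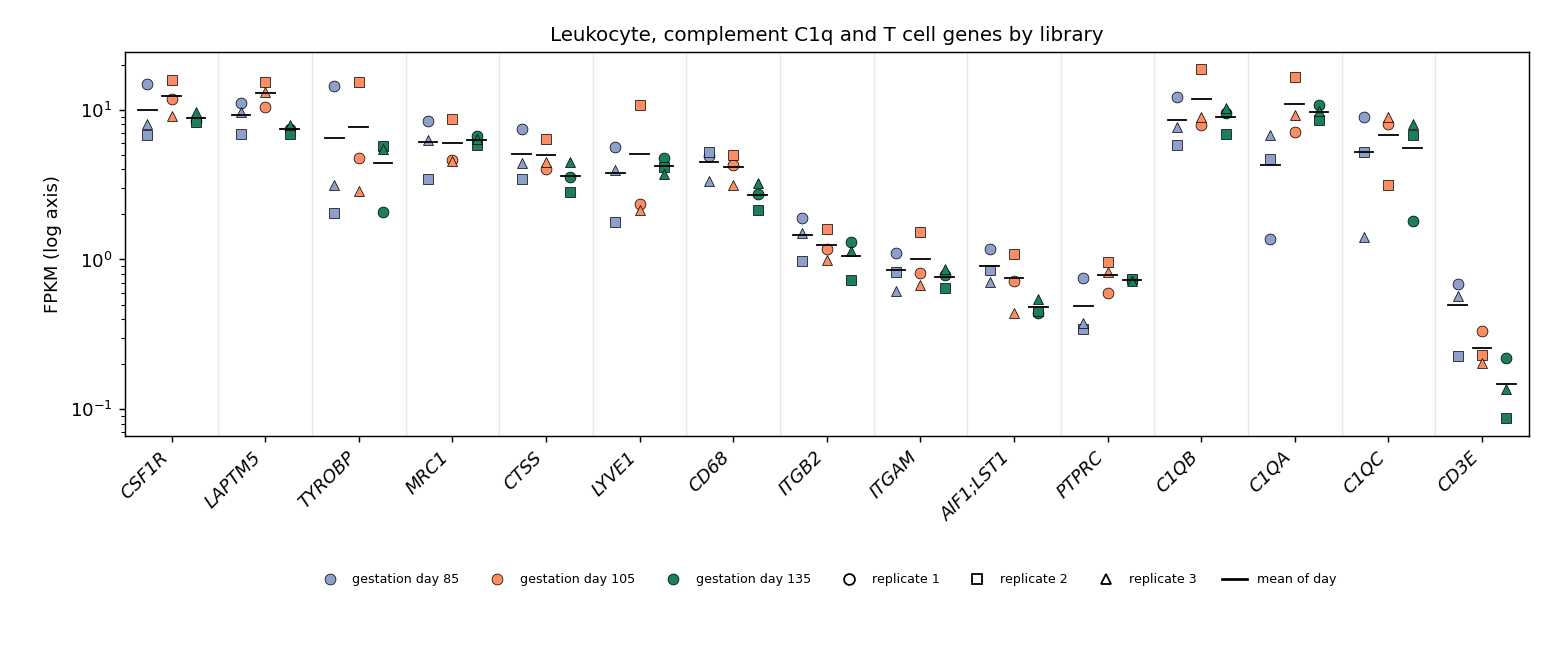
FPKM (log axis) of 11 leukocyte and macrophage genes, the 3 C1q genes and CD3E in each library, with days in colour, replicates by symbol and a bar at the mean of each day; CD4, at 0 in several libraries, is left out. D85 replicate 1 (blue circle) and D105 replicate 2 (orange square) lead for CSF1R, TYROBP, MRC1, CTSS, LYVE1 and C1QB, and C1QA is low in D85 replicate 1.

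Over the 8 tested leukocyte and macrophage genes, D85 replicate 1 was the highest library of its day for 7, D105 replicate 2 for 8 and D135 replicate 1 for 3, against 34.1%, 38.5% and 42.4% of all tested loci. A list of further macrophage and myeloid genes, 11 of them tested, gave 9, 10 and 6. Summed over the 10 leukocyte and macrophage genes at loci of their own, the level was 38.6 FPKM in D135 replicate 1, where interferon response genes were highest, and 38.0 and 43.6 FPKM in D135 replicates 2 and 3. At D85 that sum was 70.6, 31.8 and 41.4 FPKM, and at D105 it was 45.1, 81.4 and 42.1 FPKM. Fibroblast markers moved with the same libraries: 8 of 9 were highest in D85 replicate 1 and 7 of 9 in D105 replicate 2. Of 6 adipocyte markers, 4 were highest in D85 replicate 1 and 6 in D105 replicate 2. The 4 red cell markers summed to 3.94 and 7.66 FPKM there, the highest of each day, with 6.22 FPKM in D105 replicate 1. Of 8 skeletal muscle markers, 1 was highest in D85 replicate 1 and 1 in D105 replicate 2, and of 11 endothelial markers 1 and 4 were. The part of these cell types in the macrophage levels was not tested.

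The T cell genes of the set were near the floor. CD3E, a chain of the T cell receptor complex, had 0.685, 0.225 and 0.570 FPKM at D85, 0.331, 0.230 and 0.204 FPKM at D105, and 0.221, 0.0872 and 0.135 FPKM at D135. All values were below 1 FPKM, and all D135 values were below all D85 values. CD4 was listed at 0 in 5 libraries and at most at 0.0388 FPKM in the other 4. Of 21 further T, NK and B cell genes found, 18 were under 1 FPKM in every library, and 3 were tested.

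Wider lists gave the surroundings of these genes. Of 101 further leukocyte and immune cell symbols 87 were found and 24 tested. For D105 against D85 none passed, and 2 had an unadjusted p under 0.05, where 1611 of all 13086 tested loci did. For D135 against D105 0 rose and 8 fell, and for D135 against D85 1 rose and 7 fell. Of all tested loci, 4.47% rose and 35.0% fell for D135 against D105, and 6.90% rose and 39.7% fell for D135 against D85. Relative to all loci the medians of these changes were 0.14, -0.05 and 0.06. After median-of-ratios scaling 2 rose and 1 fell in each of the comparisons with D135, where 10.3% and 7.31% of all loci did against D105, and 14.8% and 12.8% against D85.

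CD44, a hyaluronan receptor of leukocytes and many other cells, had 8.09, 7.44 and 10.7 FPKM at D135 and 22.2, 18.7 and 23.1 FPKM at D85, without overlap. It fell by 1.21 ± 0.14 on the log2 scale for D135 against D85 (limma adjusted p = 0.000542), and by 0.78 after median-of-ratios scaling (limma adjusted p = 0.00663). For D105 against D85 it did not pass (-0.63, limma adjusted p = 0.146). LCK and CD8B, genes of T cells, and KIT, the stem cell factor receptor of mast cells, were the next largest, with changes of -0.60, -0.77 and -0.67 for D135 against D85 (limma adjusted p = 0.013, 0.028 and 0.0255). They lost the call after median-of-ratios scaling. CD8B also lost it without any library of D85 or D135 other than D85 replicate 2 (limma adjusted p from 0.0515 to 0.0754), and KIT without D85 replicate 2 or 3 or D135 replicate 1 or 2 (limma adjusted p from 0.056 to 0.0777). LGMN, a lysosomal protease of macrophages, rose by 0.59 for D135 against D85 (limma adjusted p = 0.0459), a call lost without any library of those days or D105 replicate 3 (limma adjusted p from 0.0535 to 0.134). For D135 against D105 the largest falls were in S100A9, a neutrophil calcium-binding protein, STAB1, a scavenger receptor, GRN, a lysosomal growth factor, and CD247, a T cell receptor chain, between -0.70 and -0.61 (limma adjusted p between 0.0096 and 0.0197), and they lost the call after that scaling. S100A9 also lost it without D105 replicate 3, D135 replicate 1 or D135 replicate 2 (limma adjusted p from 0.0575 to 0.0613). GRN did not pass for D105 against D85 (0.32, limma adjusted p = 0.413).

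Of 123 further interferon and antigen presentation symbols 83 were found and 62 tested. For D105 against D85 none passed, and 4 had an unadjusted p under 0.05, where 1611 of all 13086 tested loci did. For D135 against D105 0 rose and 11 fell, and for D135 against D85 3 rose and 11 fell. The falls are to be read against 35.0% and 39.7% of all loci in those comparisons, and the rises against 4.47% and 6.90%. Relative to all loci the medians were 0.20, 0.11 and 0.32. After median-of-ratios scaling 7 rose and 0 fell for D135 against D105, and 12 rose and 5 fell for D135 against D85. On that scale 10.3% of all loci rose and 7.31% fell against D105, and 14.8% rose and 12.8% fell against D85.

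The largest falls for D135 against D85 included general chaperones of the endoplasmic reticulum that also fold class I molecules. CANX, calnexin, had 22.5, 20.6 and 25.8 FPKM at D135 and 40.3, 53.4 and 56.9 FPKM at D85, without overlap. It fell by 1.08 ± 0.14 on the log2 scale (limma adjusted p = 0.00085), and by 0.63 after median-of-ratios scaling (limma adjusted p = 0.0156). PDIA3, a protein disulfide isomerase of the same complex, had 37.8, 37.8 and 45.4 FPKM at D135 and 82.9, 70.1 and 77.3 FPKM at D85, and fell by 0.91 ± 0.13 (limma adjusted p = 0.00102) and by 0.46 after that scaling (limma adjusted p = 0.0356). B2M changed in the opposite direction in the same libraries. Neither chaperone passed for D105 against D85 (CANX -0.45, limma adjusted p = 0.262, and PDIA3 -0.15, limma adjusted p = 0.666). PLSCR1, an interferon-induced membrane protein, changed by -0.99 (limma adjusted p = 0.007) and CXCL10, a chemokine that draws T cells, by -0.90 (limma adjusted p = 0.0232), the second not after median-of-ratios scaling (-0.69, limma adjusted p = 0.1). CXCL10 also lost the call without D85 replicate 2 or 3 or D135 replicate 2 or 3 (limma adjusted p from 0.0611 to 0.072).

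The 3 that rose for D135 against D85 were LGMN, PSMB10 and TAPBPL. PSMB10, a subunit of the immunoproteasome that cuts peptides for class I molecules, had 6.28, 3.81 and 3.97 FPKM at D135 and 3.18, 3.01 and 2.74 FPKM at D85 (0.49 ± 0.17, limma adjusted p = 0.0484). TAPBPL, a relative of tapasin, had 5.78, 3.002 and 3.40 FPKM at D135 and 2.38, 1.91 and 1.54 FPKM at D85 (0.75 ± 0.20, limma adjusted p = 0.0175). Neither gene overlapped between those days, and D135 replicate 1 was the highest library of both. The call of TAPBPL was lost without D85 replicate 3 (0.65, limma adjusted p = 0.0551). That of PSMB10 held only without D105 replicate 2 or D135 replicate 2, and without D135 replicate 1 its change was 0.30 (limma adjusted p = 0.105). For D135 against D105 the largest falls were in RFXAP, a subunit of the factor that binds MHC promoters, PDIA3, IFI30, a lysosomal thiol reductase, and IFNAR2, a chain of the type I interferon receptor, between -0.86 and -0.73 (limma adjusted p between 0.00387 and 0.0433). After median-of-ratios scaling none of these 4 passed, and IFI30 lost the call without D105 replicate 1 or 2 or D135 replicate 1 or 2 (limma adjusted p from 0.0581 to 0.0996). IFNAR2 had 1.39, 1.24 and 0.918 FPKM at D135 and 1.55, 3.08 and 3.47 FPKM at D105, without overlap, and lost the call without any library other than D85 replicate 1 and D105 replicate 1 (limma adjusted p from 0.0503 to 0.125).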

How the data were processed

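RNA sequencing of the longissimus dorsi gave 9 libraries, assigned to gestation days 85, 105 and 135 by the titles and the age tag. FPKM per locus and library were deposited by the authors. The submitters' processing notes name cutadapt, Bowtie2 and TopHat2. No source used here gives the genome build, the assembler or how reads were counted. No sequences or positions are therefore printed. A pair of sequencer models is named in the design text, unassigned to libraries, so no value within a batch could be had.

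The loci kept for testing had 1 FPKM or more in 3 or more libraries (13086). A limma model (version 3.58.1, R 4.3.3; lmFit, contrasts, eBayes with trend) was fitted to log2(FPKM + 1) of the 9 libraries together, and was tested on simulated data. Tests were two-sided, adjusted by the Benjamini-Hochberg method over all 13086 loci, and called at 0.05. Tables and plots used Python 3.11.15 with pandas 2.3.3, numpy 2.4.6 and matplotlib 3.10.9. A RefSeq gene table (ARS-UI_Ramb_v3.0) served only to say which genes are neighbours.

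The genes and lists were chosen with earlier results of these data known. By rule, the text names every called member, the 2 members of highest mean in each role, and up to 4 called genes of largest change in each further list and comparison (the 2 of highest mean where none was called). Values of the remaining members, of OAS1, RSAD2, PSMB10, TAPBPL and LGMN, and of the MHC loci were added after seeing them. A single gene of the set and 2 genes of the further lists are not reported here.

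Settings varied were the pseudocount, low-value filter, scaling, variance model, library weights, days fitted, treatment of repeated names, a replicate block, and omission of each library. Omission of D105 replicate 2 with D135 replicate 1, and of these with D85 replicate 1, was added after seeing the data.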

Additional observations from a re-analysis of the deposited data

How the results depend on the processing

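None of the 26 calls of single genes named turned its sign under any alternative. Many alternatives could not turn a sign, since they leave the estimated change as it was. These are the filters, variance models, compared days alone, replicate block and omission of a library of the third day. The calls were also picked for passing in these same data, so their stable signs are no support for them. Changes that had not passed could turn. For D135 against D85, CSF1R was at -0.09 as deposited and 0.33 after median-of-ratios scaling, and TYROBP at -0.18 and 0.19. The median change of the 25 genes for D135 against D105 turned as well: it was -0.13 in the deposited values, 0.14 after median-of-ratios scaling, 0.17 after quantile normalization and 0.10 without D105 replicate 2. Median-of-ratios scaling moved the split of calls: over all loci it gave 1942 higher and 1673 lower for D135 against D85, where the deposited values gave 903 and 5194, and 1344 and 957 for D135 against D105, where they gave 585 and 4579. Under that scaling 6 of the 25 genes passed for D135 against D85, and 1 for D135 against D105. The further leukocyte genes passing numbered 3 in each comparison with D135, and the further interferon and antigen presentation genes 7 for D135 against D105. Quantile normalization gave 1 and 3 further leukocyte genes and 5 further interferon genes in the same order, and 5 of the 25 genes for D135 against D85; B2M did not pass for D135 against D85 (1.01, limma adjusted p = 0.0693). Totals without the top 50 loci gave 5 further leukocyte genes for D135 against D85, and no filter on low values gave 13 for D135 against D105, with 7 further interferon genes. Both of these settings gave 1 of the 25 genes for D135 against D105. Library weights gave 5 of the 25 for D135 against D85, where 6371 of all 13086 loci passed. Without D105 replicate 2 and D135 replicate 1, added after the data were seen, 1 of the 25 genes passed for D135 against D105, with 3 and 4 further leukocyte genes and 6 further interferon genes. Without D85 replicate 1 as well, the further lists gave 4, 3 and 6, where 2608 and 4289 of all loci passed for D135 against D105 and D135 against D85. Leaving out 1 library at a time gave 0 to 0, 0 to 3 and 1 to 5 of the 25 genes for D105 against D85, D135 against D105 and D135 against D85, in that order. For the further leukocyte list it gave 0 to 0, 5 to 10 and 2 to 8, and for the further interferon list 0 to 0, 6 to 11 and 9 to 16. Over all 13086 loci it gave 14 to 28, 3456 to 5092 and 4735 to 6152. Of 26 calls of single genes named, 16 each were lost with median-of-ratios scaling and with quantiles, 7 with no filter, 6 with the compared days alone, 5 with totals without the top loci, 2 with library weights and 11 under each added exclusion; a pseudocount of 0.1, robust variances and a filter on mean FPKM lost 1 each. IRF1, which missed the threshold as deposited, passed for D135 against D85 under 10 of the alternatives. C1QA and CD74 did so under 5 each, TAP2 under 3 and TAP1 under 2. The joined TAPBP locus passed for D135 against D105 under 8, with median-of-ratios scaling not among them. The replicate numbers did not pair the libraries (correlation of deviations between -0.0659 and 0.0605 over 9 pairs of libraries with the same number). With the replicate number as a block, 0, 1 and 3 of the 25 genes and 7 further interferon genes for D135 against D105 passed, and 8 of the 26 calls were lost. Of all loci, 8, 4320 and 5495 passed with that block for D105 against D85, D135 against D105 and D135 against D85. Depth is unknown, and genes under the filter on low values were not tested. The causes of these shifts were not tested.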
